A study of Brassica napus with 17 samples.

Results

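The distal part of chromosome C02 of Brassica napus was followed here as a run of neighbouring gene IDs, from BnaC02g30550D to BnaC02g48780D. These limits hold 1824 IDs, of which 1170 had at least 10 counts summed over the 17 libraries. Those 1170 genes, out of 75664 genes with at least 10 counts in the whole count table, are described below. The other 654 IDs had fewer than 10 counts, and 317 of them had none. The limits were chosen by the levels these same libraries showed along C02 in an earlier reading of the counts. The levels of the stretch are therefore given as a description, with no test.

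All material was the doubled haploid line DH12075 with a LEC1-GFP reporter, a fluorescent marker of embryo identity. Late unicellular microspores, the immature pollen cells, were taken untreated at day 0 in 3 libraries. The others were kept at 33 °C for 24 h, with or without trichostatin A (TSA), then moved to fresh medium at 25 °C. Cultures with heat plus TSA were sampled at day 2 (3 libraries), day 4 (3 libraries) and day 8 (2 libraries), and cultures with heat alone at day 2 and day 4 (3 libraries each). The labels give 0.5 µM TSA for day 2 and 0.05 µM for day 8. The day 4 dose is uncertain, because the titles say 0.5 µM and the treatment field says 0.05 µM. Only RNA was measured, and no day 8 culture with heat alone was analysed here. One sequencing run is named in the labels, and it covers day 0 and the TSA cultures of days 2 and 8. In a contrast of these with the remaining groups, run and treatment cannot be told apart.

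B. napus is an allotetraploid that carries an A subgenome and a C subgenome. Each C chromosome therefore has related A chromosomes, and A02 and C02 hold long stretches of matching gene copies, called homoeologues. Heat stress makes cultured microspores leave the pollen pathway and divide into embryos. TSA blocks histone deacetylases, enzymes that remove acetyl groups from histones and so favour closed chromatin. The sources used here pair none of the IDs with a named gene, so no function is given for any of them, and marker genes of microspores or embryos could not be used to check the sample labels.

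The reference used here, the assembly of another cultivar called Da-Ae, lists 49 of the 1170 genes by the same ID. It places 46 on its chromosome C2 and 3 on A2. The order of the IDs there divides the stretch into blocks. From BnaC02g30550D to BnaC02g43970D the IDs listed on C2 run in rising order along it in the reference. This ordered run holds 859 of the genes, 39 of them listed on C2. From BnaC02g44430D to BnaC02g46580D the 3 listed IDs stand elsewhere on C2: BnaC02g44430D between BnaC02g11250D and BnaC02g11930D, BnaC02g45840D between BnaC02g17280D and BnaC02g17680D, and BnaC02g46580D between BnaC02g25560D and BnaC02g28130D. This second block holds 145 genes. From BnaC02g46860D to BnaC02g48780D, 4 listed IDs stand back inside the ordered run on C2, as BnaC02g46860D does between BnaC02g33160D and BnaC02g33500D and BnaC02g48230D does between BnaC02g37080D and BnaC02g37340D. The third block so formed holds 118 genes, and the other 48 genes of the stretch lie between blocks. The 3 genes listed on A2 are BnaC02g42710D and BnaC02g42940D, between BnaA02g32290D and BnaA02g34430D, and BnaC02g48500D, between BnaA02g31700D and BnaA02g31980D. The second block and the third block rest on few listed IDs, and the order in DH12075 itself was not analysed here.

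Most genes of the stretch were expressed at low levels. Levels are counts per 1000000 (CPM) on library sizes scaled by the TMM method of edgeR. Of the 1170 genes, 534 had a mean under 1 CPM over the 17 libraries, 345 had a mean of at least 5 CPM and 37 had a mean of at least 50 CPM. Library totals ran from 2716279 counts in day 0 replicate 3 to 31407037 in TSA day 4 replicate 1, so 3 counts stood for 0.0808 to 0.786 CPM. In the day 8 cultures with TSA 443 genes (37.9%) averaged at least 1 CPM, against 484 (41.4%) at day 0. On the rest of C02 the shares were 48.9% at TSA day 8 and 49.6% at day 0, and over all genes 54.8% and 51.8%. In the TSA cultures 572 genes (48.9%) did so at day 2 and 562 (48.0%) at day 4. In the cultures with heat alone the numbers were 579 (49.5%) at day 2 and 609 (52.1%) at day 4. Over all genes the shares were 60.3% at TSA day 2, 60.6% at TSA day 4, 56.1% at heat-only day 2 and 58.5% at heat-only day 4. No count at all was found in either day 8 library for 258 of the genes, against 167 in the 3 day 0 libraries. Matching numbers for the rest of C02 and for all genes were not counted. The day 8 number rests on 2 libraries, and the part of depth and library number in this difference was not tested. These are whole-culture measurements, in which fewer cells of a type and less RNA per cell cannot be told apart.

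Libraries of 1 group did not all carry the same level of the stretch, and this comes before any comparison of groups. Among the 345 genes with a mean of at least 5 CPM, replicate 1 of the heat-only cultures had a median of 0.586 times the mean of replicates 2 and 3 at day 2 (quartiles 0.456 and 0.840). At day 4 the same replicate number had 0.550 times the mean of the other two (quartiles 0.374 and 0.806). The matching medians for the rest of C02 were 0.920 at day 2 and 0.940 at day 4. For A02 they were 0.969 and 0.929, and for all genes of this level 0.988 and 0.966. Replicate 1 was the lowest of the 3 heat-only libraries on both days for 235 of the 345 genes (68.1%). The same held for 25.5% of genes on the rest of C02, 22.9% on A02 and 20.9% of all genes. Heat-only replicate 1 had the smallest total of its group on each day, 17845967 counts at day 2 and 9360060 at day 4. The part of depth in these ratios was not tested.

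When the level was set against the rest of C02, the 17 libraries stood at 3 levels. For each gene of mean at least 5 CPM the offset is its log2(CPM + 1) in a library minus the mean of the 6 group means, and the value of a library is the median offset of the stretch minus the median offset of the rest of C02. Heat-only replicates 2 and 3 were the high libraries, with values of 0.53 and 0.53 at day 2 and 0.57 and 0.63 at day 4. The TSA day 8 libraries were the low ones, with -0.83 and -0.85. Every other library lay between -0.14 and 0.01. Those were the 3 day 0 libraries, the 6 TSA libraries of days 2 and 4, and heat-only replicate 1 with -0.05 at day 2 and -0.08 at day 4. Over all 1170 genes, low ones included, the values were smaller. Heat-only replicates 2 and 3 then had 0.086 and 0.078 at day 2 and 0.12 and 0.14 at day 4, and the TSA day 8 libraries had -0.14 and -0.16. Among the genes of mean at least 5 CPM, heat-only replicate 1 lay inside the range of the day 0 and TSA day 2 and day 4 libraries, and the other heat-only libraries lay above it. Over all 1170 genes heat-only replicate 1 had -0.041 at day 2 and -0.025 at day 4. Both values were then below the day 0 and TSA day 2 and day 4 libraries, which ran from -0.020 to 0.012. For A02, set against all genes in the same way, every library lay between -0.10 and 0.07.

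**Figure D1:**
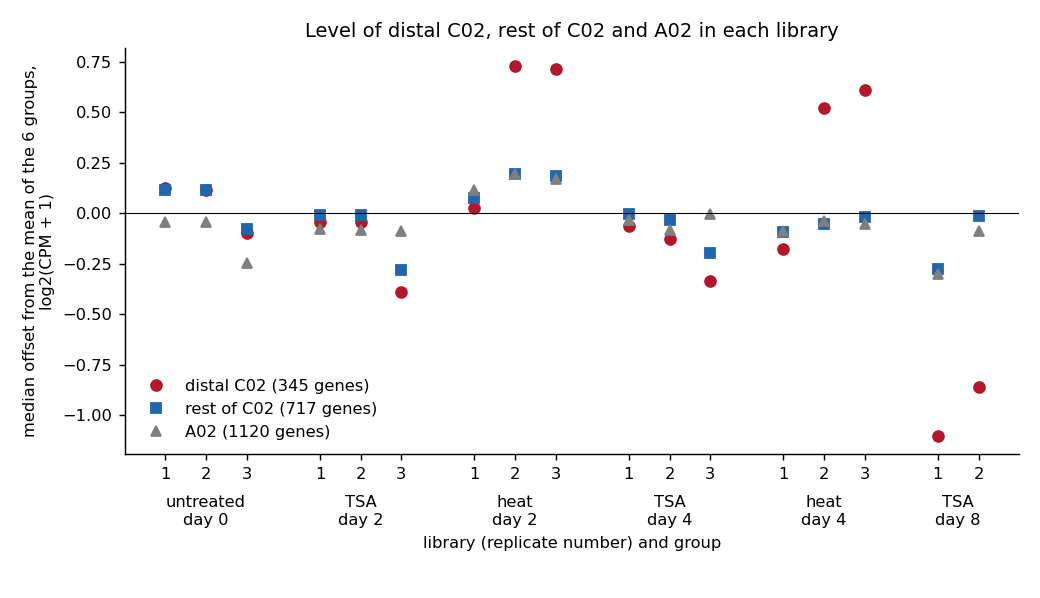
Median offset of log2(CPM + 1) from the mean of the 6 groups, for genes of mean at least 5 CPM, in each of the 17 libraries (points), for distal C02, the rest of C02 and A02. Distal C02 stood above the rest of C02 in replicates 2 and 3 of the cultures with heat alone and below it in both TSA day 8 libraries, and lay within 0.14 of it in the other 11.

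The low level of heat-only replicate 1 covered most of the stretch but not all of it. The genes were taken in ID order in windows of 30, and 36 of the 39 windows held at least 5 genes with a mean of at least 5 CPM. The median difference of replicate 1 from the mean of the other 2 libraries was under -0.5 on the log2(CPM + 1) scale in 25 of the 36 windows at day 2 and in 28 at day 4. On the rest of C02 this was so in 1 of 68 windows at day 2 and 3 of 68 at day 4, and on A02 in 0 and 6 of 95 windows. The single window of the rest of C02 with a drop on both days, from BnaC02g16520D to BnaC02g16940D, had -0.92 at day 2 and -1.48 at day 4. It held 6 genes of that level.

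Inside the lower limit, the first window under -0.5 on both days began at BnaC02g31760D, and the values before it did not fall steadily. The window from BnaC02g29950D to BnaC02g30540D, just outside, had -0.43 at day 2 and -0.30 at day 4. The first window inside, up to BnaC02g31140D, had -0.19 and 0.11, and the next, up to BnaC02g31750D, had -0.60 and 0.02. From BnaC02g31760D to BnaC02g32220D the values were -0.99 and -1.70. From BnaC02g31760D to BnaC02g43680D, 24 windows with enough genes lay within the ordered run and had a median of -0.82 at day 2 and -0.98 at day 4, with 21 and 23 of them under -0.5. In ratio terms the 250 genes of mean at least 5 CPM in the ordered run had 0.532 times the level of the other heat-only libraries at day 2 and 0.504 times at day 4.

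The second block, whose listed IDs stand elsewhere on C2 in the reference, showed little of the drop. Its 48 genes of mean at least 5 CPM had ratios of 0.942 at day 2 and 0.841 at day 4. Windows wholly inside it lay between -0.19 and 0.06 at day 2 and between -0.58 and -0.01 at day 4. The third block, whose listed IDs stand back inside the ordered run, had ratios of 0.537 and 0.467 over 28 genes. All 28 were lower in replicate 1 at day 2, and 26 were at day 4. The windows wholly inside this block, 3 in number, lay between -1.14 and -0.66 at day 2 and between -1.17 and -0.71 at day 4.

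**Figure D2:**
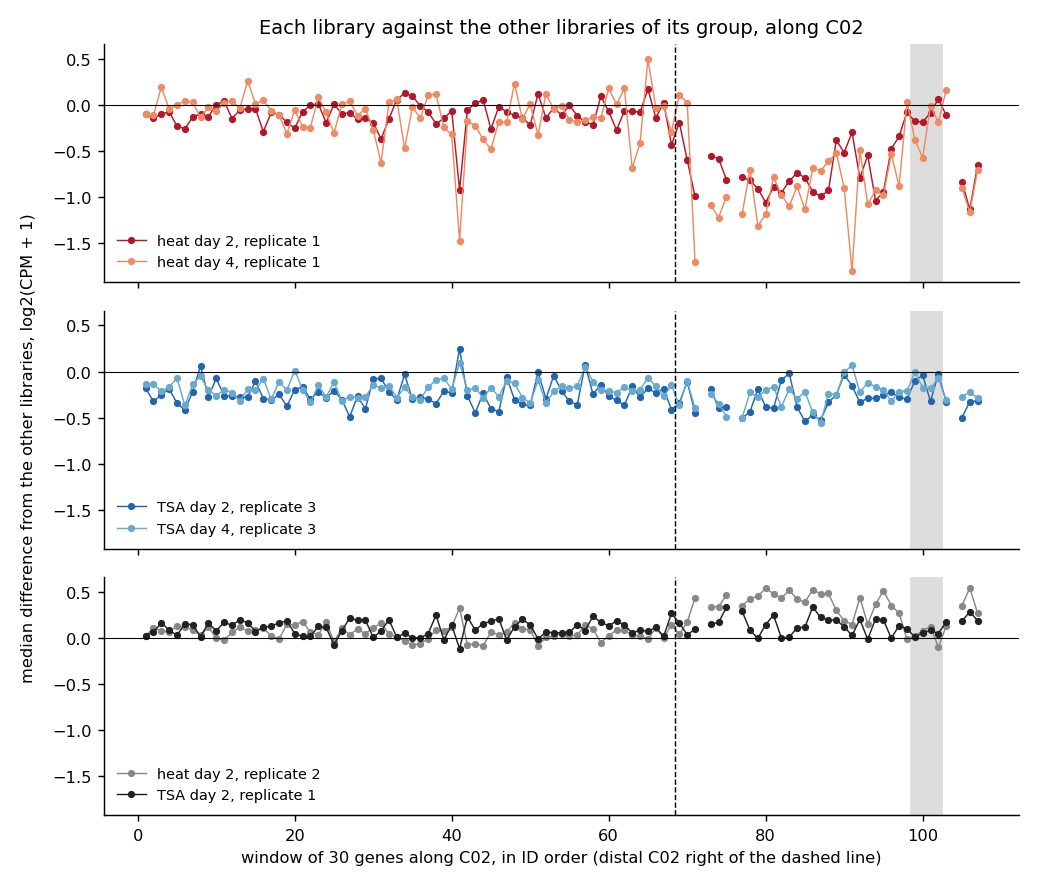
Median difference of a library from the other libraries of its group, log2(CPM + 1), in windows of 30 genes along C02 (points), for genes of mean at least 5 CPM. Grey shading marks windows wholly inside the block from BnaC02g44430D to BnaC02g46580D. In heat-only replicate 1 the windows right of the dashed line were mostly under -0.5 on both days, except near the limit and in and beside the shaded block; TSA replicate 3 lay below 0 along nearly all of C02.

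Within the ordered run the ratio of replicate 1 is given here by abundance class. At day 2 the ratio of replicate 1 was 0.503 for 92 genes with a mean of 5 to 10 CPM, 0.535 for 134 genes of 10 to 50 CPM and 0.824 for 24 genes of 50 CPM or more. At day 4 the same 3 classes had 0.539, 0.503 and 0.366. The most abundant class had the ratio nearest to 1 at day 2 and the lowest at day 4. Of the 250 genes, 167 (66.8%) were under 0.75 times the others on both days and 20 (8%) on neither day. A ratio of at least 1 on both days was seen in 7 genes. One of these was among the 24 with a mean of at least 50 CPM, namely BnaC02g30990D. It had 371, 367 and 369.5 CPM in the heat-only libraries of day 2 and 457, 409 and 405 CPM at day 4. Its ID lies before BnaC02g31760D, where the drop was first seen on both days, as do BnaC02g31390D, BnaC02g31510D and BnaC02g31570D. The other genes without a drop were BnaC02g35150D, BnaC02g42200D and BnaC02g42210D.

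Replicate 3 of the TSA cultures was also low, but along the whole of C02. Over the stretch it had 0.760 times the mean of replicates 1 and 2 at day 2 and 0.806 times at day 4. The rest of C02 had 0.815 and 0.858, A02 had 1.00 and 1.04, and all genes had 1.01 and 1.04. This library was the lowest of its group on both days for 56.5% of the 345 genes, 54.7% of the genes on the rest of C02, 16.5% on A02 and 16.0% of all genes. The lower level of TSA replicate 3 was thus found on both parts of the chromosome. Along the distal windows its median was -0.32 at day 2 and -0.23 at day 4, and 36 of 36 and 35 of 36 windows were below 0. TSA day 2 replicate 3 had the smallest total of its group, 13707782 counts, and TSA day 4 replicate 3 had 24255663, more than replicate 2. The part of depth was not tested.

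Both TSA day 8 libraries had low levels of the stretch. The share of all counts that fell in the 1170 genes was 0.642% and 0.603% at day 8, against 0.928%, 0.928% and 0.896% at day 0. As a part of all C02 counts it was 21.8% and 20.8% at day 8 and 26.2%, 26.2% and 25.5% at day 0. The lowest day 0 share was above the highest day 8 share in both measures. In windows the day 8 offset was under -0.5 in 30 of 36 distal windows, in 10 of 68 windows of the rest of C02 and in 22 of 95 windows of A02. The median window had -1.02 on the distal part, -0.13 on the rest of C02 and -0.22 on A02. All 24 windows of the ordered run from BnaC02g31760D on were under -0.5, with a lowest value of -1.99 from BnaC02g37130D to BnaC02g37530D.

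The lower edge of the day 8 pattern lay outside the limits. The windows from BnaC02g29470D to BnaC02g29940D and from BnaC02g29950D to BnaC02g30540D, both just below the lower limit, had day 8 offsets of -0.94 and -1.06, while heat-only replicate 1 had 0.02 and -0.43 there at day 2. In the second block the day 8 offset ran from -0.50 to 0.06 over 4 windows, and in the third block from -1.01 to -0.43 over 3 windows. Relative to the rest of C02, the day 8 libraries had -0.88 and -0.95 in the ordered run, -0.19 and -0.05 in the second block and -0.51 and -0.63 in the third block.

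**Figure D3:**
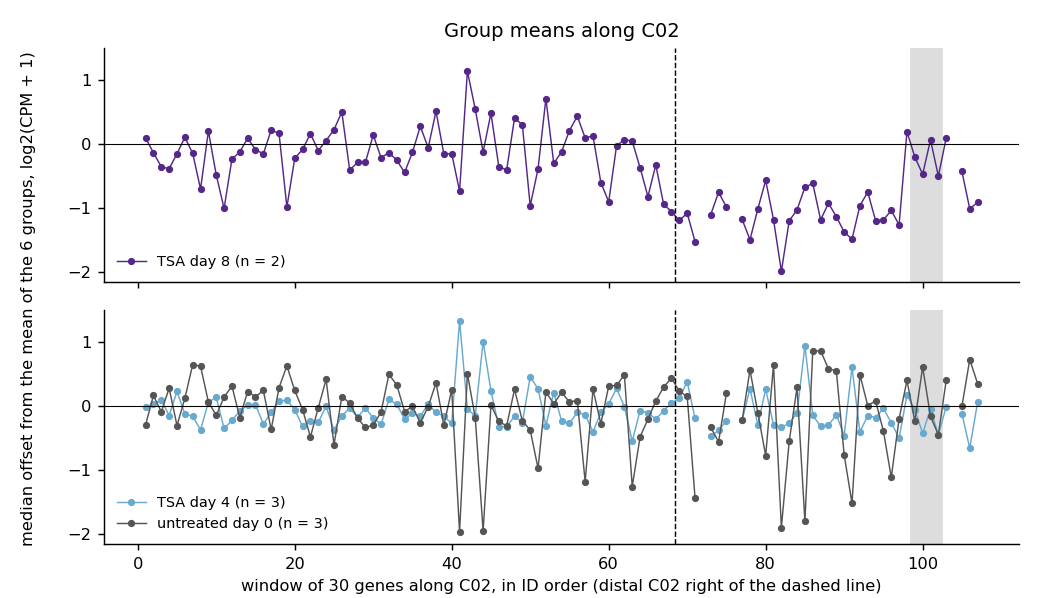
Median offset of group means from the mean of the 6 groups, log2(CPM + 1), in windows of 30 genes along C02, for TSA day 8 (upper panel) and for TSA day 4 and untreated day 0 (lower panel). At TSA day 8 the windows right of the dashed line lay mostly near -1, apart from those in and beside the shaded block from BnaC02g44430D to BnaC02g46580D; the day 0 and TSA day 4 windows lay on both sides of 0.

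Both patterns were also counted gene by gene. Of the 345 genes, 193 (55.9%) had under 0.75 times the level of the other heat-only libraries in replicate 1 on both days. At TSA day 8, 192 of the 345 (55.7%) were below every day 0 library and 73 (21.2%) were above every one. On the rest of C02 the shares were 39.1% and 29.6%, and for all genes 38.0% and 32.3%. Both patterns were present in 121 genes, which is 62.7% of the first set and 63.0% of the second. These shares lie near the 55.7% and 55.9% that the patterns have among all 345 genes. On the rest of C02, 60 genes (8.37%) had the first pattern and 280 the second, and 18 had both, 30% of the first and 6.43% of the second. Of all 30727 genes of this level, 2389 (7.77%) had the first pattern and 11672 the second. Both were present in 702, 29.4% of the first and 6.01% of the second. These shares compare sets that were seen in the data and were not tested.

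Shares of counts in the cultures with heat alone rested on few genes. In the TSA cultures the share of the stretch was 0.986%, 0.968% and 0.770% at day 2 and 0.901%, 0.900% and 0.745% at day 4. With heat alone it was 1.03%, 1.43% and 1.44% at day 2 and 1.14%, 1.62% and 1.55% at day 4. Heat-only libraries had the higher shares on both days, and replicate 1 had the lowest share within the heat-only group. A single gene, BnaC02g38360D, held 29.4% to 43.9% of the counts of the stretch in the heat-only libraries. The 10 most abundant genes together held 4.90% to 6.12% in the TSA libraries of days 2 and 4, 44.3% to 61.9% in the heat-only libraries and 9.07% to 11.8% at day 0. Without those 10 genes the share was 0.442%, 0.798% and 0.802% in heat-only day 2 cultures and 0.435%, 0.791% and 0.742% in heat-only day 4 cultures, against 0.844%, 0.841% and 0.790% at day 0. In this share heat-only replicate 1 lay far below every day 0 library on both days, while replicates 2 and 3 overlapped with day 0 or lay close under it. These shares are of raw counts, without TMM scaling. The share of the rest of C02 was also lower, at 1.60% to 2.02% in heat-only libraries against 2.62% at day 0. On the scaled level against the rest of C02, described above, replicate 1 lay near day 0 and replicates 2 and 3 lay above it.

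BnaC02g38360D was the most abundant gene of the stretch. It had 24.5, 29.6 and 52.2 CPM in TSA day 2 cultures and 5379, 4908 and 4827 CPM in heat-only day 2 cultures. At day 4 the values were 57.0, 112 and 59.5 CPM with TSA and 8256, 12477 and 10888 CPM with heat alone. At TSA day 8 it had 0.265 and 7.74 CPM, and at day 0 39.4, 40.8 and 42.2 CPM. Every heat-only library lay above every other library. BnaC02g37530D and BnaC02g37490D followed the same order. With TSA, BnaC02g37530D had 1.26, 2.79 and 0.340 CPM at day 2, 8.81, 14.8 and 0.617 CPM at day 4 and 0 and 0.229 CPM at day 8. With heat alone it had 398, 415 and 417 CPM at day 2 and 420.3, 739 and 952 CPM at day 4, and day 0 had 1.19, 0.717 and 0.524 CPM. For BnaC02g37490D, TSA cultures had at most 4.29 CPM, in TSA day 4 replicate 2. Its heat-only cultures had 303, 379 and 368 CPM at day 2 and 394, 979.6 and 821 CPM at day 4, and no library at day 0 passed the level of 3 counts.

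The most abundant genes were ranked by their mean over the 17 libraries, so a gene high in 1 group could enter through that group. No matching count was made for all genes. Of the 10 most abundant genes, 9 were higher in every heat-only library than in any other library, which follows in part from the ranking. The exception was BnaC02g40260D, which had 181, 156 and 141 CPM in TSA day 2 cultures and 177, 369 and 357 CPM in heat-only day 2 cultures, where replicate 1 had 0.486 times the mean of the others and overlapped with TSA. At day 0 it had 266, 271 and 330.2 CPM. BnaC02g31030D had 128, 137 and 128 CPM with TSA and 282, 273 and 266 CPM with heat alone at day 2. At day 4 it had 132, 144 and 132 CPM with TSA and 482, 844 and 611 CPM with heat alone, and the groups did not overlap on either day. BnaC02g46260D, in the second block, had 48.7, 48.6 and 39.0 CPM with TSA and 378, 367 and 356 CPM with heat alone at day 2, against 164, 174 and 195 CPM at day 0. Its heat-only replicate 1 was the highest of the group on both days. Also in the second block, BnaC02g44910D and BnaC02g45610D had heat-only replicate 1 the highest at day 2, with 206, 85.4 and 91.8 CPM and 256, 180.2 and 173 CPM, and the lowest at day 4, with 511, 1043 and 732 CPM and 446, 797 and 621 CPM. With TSA, BnaC02g44910D had 0.764, 0.736 and 1.25 CPM at day 2, 1.08, 2.47 and 3.30 CPM at day 4 and 0.0530 and 0.458 CPM at day 8, against 0.0808, 0.143 and 0 CPM at day 0. BnaC02g45610D had at most 3.08 CPM in any TSA library, in TSA day 4 replicate 3, and at most 0.108 CPM at day 0. Both genes were thus high with heat alone and low in every other group.

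**Figure D4:**
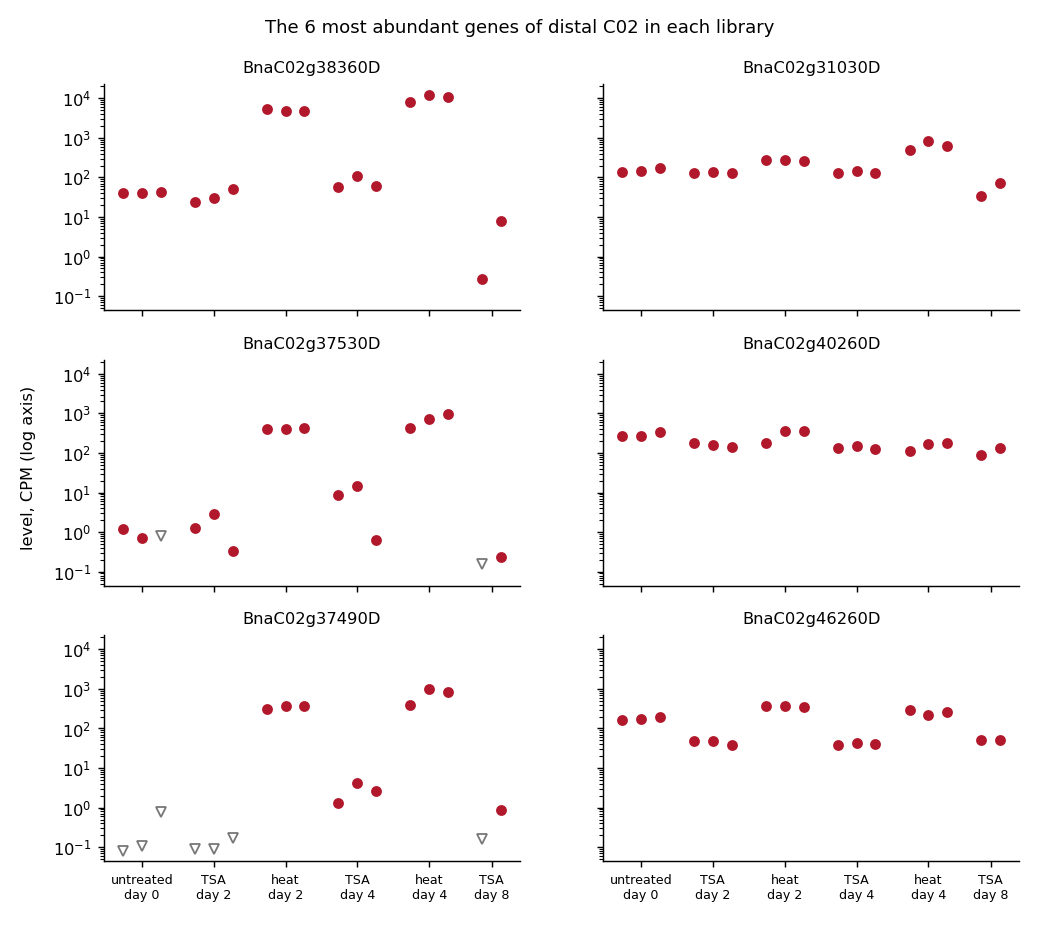
Levels in CPM (log axis) of the 6 most abundant genes of the stretch in each library, in 6 groups. The genes were ranked by their mean over the 17 libraries, so high heat-only levels helped to place them here. Filled points are measured levels, and open triangles stand at the level of 3 counts for libraries below it; all but BnaC02g40260D were higher in every heat-only library than in any other library.

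The next comparison asks what TSA added to heat at day 2. Of the 1170 genes, 931 passed the filter on low counts and 239 did not, so the counts of calls leave those out. A call is an adjusted p under 0.05 in the quasi-likelihood test of edgeR, adjusted over all 64330 genes tested. With TSA, 290 of the 931 genes (31.1%) were called higher and 356 (38.2%) lower, 646 in all, beside 66.4% of all genes tested, 34.8% higher and 31.6% lower. The median log2 fold change was -0.25 in the stretch and 0.06 over all genes, a difference of -0.31. Scaling by library totals moved the all-gene median to 0.72 and the median of the stretch to 0.37, and made 61.4% of its calls higher in place of 44.9%, while the difference was -0.35. Of the calls over all genes, 72.8% were then higher in place of 52.4%. Without heat-only day 2 replicate 2 or 3 the median of the stretch was -0.07 or -0.09, and without TSA day 2 replicate 3 it was -0.13. The differences from all genes were then -0.19, -0.22 and -0.19. Without replicate 1 of both heat-only groups the difference was -0.49, with 281 genes called higher and 395 lower.

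Which heat-only library was used set the size of that difference. Against heat-only replicate 1 the TSA day 2 mean of the stretch stood 0.05 above the rest of C02 on the log2(CPM + 1) scale. Against replicates 2 and 3 it stood at -0.60 and -0.65. At day 4 the values were -0.03 against replicate 1 and -0.54 and -0.66 against the others. Hence the lower level of the stretch with TSA was seen against 2 of 3 heat-only libraries on each day and not against replicate 1.

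Single genes differed between TSA and heat by far more. BnaC02g45000D had 352, 271 and 293 CPM in TSA day 2 cultures, against 0.521, 1.91 and 2.05 CPM in heat-only day 2 cultures, a log2 fold change of 7.61. BnaC02g41390D had 31.4, 38.7 and 54.3 CPM with TSA and 0.298, 0.203 and 0.319 CPM with heat alone. BnaC02g45610D had no count in any TSA day 2 library, and heat-only libraries had 256, 180.2 and 173 CPM. These genes were chosen for the largest changes among called genes whose groups did not overlap. That the groups lay far apart beside the split between replicates therefore follows from the choice.

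At day 4, 250 of the 931 genes (26.9%) were called higher with TSA and 326 (35.0%) lower, 576 in all, beside 67.6% of all genes, 40.3% higher and 27.3% lower. The median log2 fold change was -0.09 in the stretch and 0.44 over all genes, a difference of -0.53. With library totals the medians were 1.06 and 1.58, and 71.3% of the calls in the stretch were higher in place of 43.4%. Over all genes 80.8% of the calls were higher in place of 59.6%. The difference between the medians was then -0.52. With the RLE factors of edgeR the medians were -0.36 and 0.18, a difference of -0.54. With DESeq2 they were -0.36 and 0.00, a difference of -0.36. The heat-only libraries left in the fit moved the calls. Without heat-only day 4 replicate 1, 167 genes were called higher and 371 lower, with a median of -0.55. Without replicate 3 of that group 158 were called higher and 298 lower, with a median of -0.20, and without replicate 2 the median was -0.26. The all-gene medians without replicates 1, 3 and 2 in turn were 0.19, 0.22 and 0.17. The differences were -0.74, -0.42 and -0.43. Against all genes the stretch was thus lower without replicate 1, and less low without replicate 3 or 2, than with all libraries. Without heat-only replicate 1 of both days 180 were called higher and 387 lower, with a median of -0.53 and a difference of -0.72. Without TSA day 4 replicate 1 the median was -0.15, and without TSA day 4 replicate 3 it was -0.01, with differences of -0.56 and -0.42. BnaC02g38730D had 31.7, 26.3 and 24.2 CPM with TSA and 0, 0.802 and 0.990 CPM with heat alone. BnaC02g30550D, the first gene inside the lower limit, had 45.7, 41.2 and 29.1 CPM with TSA and 1.23, 1.34 and 1.65 CPM with heat alone at day 4, and at day 2 35.0, 48.2 and 31.4 CPM and 1.34, 1.34 and 2.09 CPM. BnaC02g34750D had 0, 0.0587 and 0 CPM with TSA, against 83.4, 496 and 353 CPM with heat alone. BnaC02g37670D had no count in any TSA day 4 library, and heat-only libraries had 29.6, 200.01 and 133 CPM. In both of the last 2 genes heat-only replicate 1 was the lowest, at under 0.25 times the mean of the others.

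Heat alone at day 2 was compared with day 0 to follow the change during induction. Of the 931 genes, 301 (32.3%) were called higher and 171 (18.4%) lower, beside 56.4% of all genes, 31.1% higher and 25.3% lower. The median of the stretch was 0.26 and that of all genes 0.07. Without heat-only replicate 1 of both days, 360 genes were called higher and 135 lower, and the median was 0.49 with 0.10 over all genes. Without heat-only day 2 replicate 1 alone the median of the stretch was 0.52, and without replicate 2 or 3 of that group 0.18 or 0.17. The all-gene medians were then 0.11, 0.08 and 0.07. With library totals 41.4% of the calls in the stretch were higher in place of 63.8%. Over all genes it was 31.5% of the calls in place of 55.1%. BnaC02g37490D had 303, 379 and 368 CPM in heat-only day 2 cultures and 0.0269, 0.0359 and 0 CPM at day 0. BnaC02g39350D had 67.1, 77.1 and 72.8 CPM at heat-only day 2 and no count at day 0. BnaC02g35130D had 2.83, 3.29 and 5.78 CPM in heat-only day 2 cultures, against 96.1, 86.2 and 55.8 CPM at day 0. BnaC02g43590D had 0.372, 0.975 and 0.728 CPM, against 12.5, 11.6 and 10.2 CPM.

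Day 4 cultures with heat alone were also set against those of day 2. In the stretch 223 genes (24.0%) were called higher and 148 (15.9%) lower, beside 45.4% of all genes, 22.2% higher and 23.2% lower. The median was 0.14 in the stretch and 0.00 over all genes. The split depended on the scaling, with 60.1% of the calls in the stretch higher under TMM, 76.6% under the RLE factors of edgeR and 26.6% with library totals. Over all genes those shares were 48.9%, 66.9% and 21.5%. Without heat-only replicate 1 of both days, 276 genes were called higher and 119 lower, with a median of 0.39. The all-gene median was then 0.22, a difference of 0.17, against a difference of 0.14 with all libraries. The number called lower depended on single libraries. It was 43 without day 2 replicate 2 and 44 without day 2 replicate 3. Without day 4 replicates 1, 2 and 3 in turn it was 53, 52 and 83. The median of the stretch was 0.51, 0.54 and 0.57 without day 2 replicate 2, day 2 replicate 3 and day 4 replicate 1, and 0.22 to 0.25 without each of the others. All genes moved as well when single libraries were left out. Their median was then 0.16 to 0.24, and 62.9% to 66.1% of their calls were higher, against 0.00 and 48.9% with all libraries. Without heat-only day 4 replicate 2 the calls in the stretch fell to 242, against 371 with all libraries. Calls over all genes fell to 22000, against 29185 with all libraries. BnaC02g31830D had 23.1, 197 and 141 CPM at day 4 and 0.521, 4.19 and 5.73 CPM at day 2. BnaC02g32980D had 9.69, 144 and 105 CPM at day 4 and 0.0744, 1.87 and 3.41 CPM at day 2. Replicate 1 was lowest in both genes on both days. BnaC02g39450D had 5.64, 5.48 and 10.3 CPM at day 4 and 25.4, 90.7 and 78.6 CPM at day 2. BnaC02g41710D had 1.41, 2.00 and 3.05 CPM at day 4 and 13.5, 22.2 and 21.0 CPM at day 2.

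TSA day 2 cultures were compared with day 0, which shared their sequencing run. Higher levels were called for 277 genes of the stretch (29.8%) and lower levels for 271 (29.1%), beside 61.6% of all genes, 32.9% higher and 28.7% lower. The medians were -0.02 in the stretch and 0.02 over all genes, and with single libraries left out that of the stretch lay between -0.10 and 0.04. BnaC02g41390D had 31.4, 38.7 and 54.3 CPM at TSA day 2 and no count at day 0. BnaC02g31270D had no count at day 0 either, and its TSA day 2 libraries had 9.17, 5.73 and 53.5 CPM, with replicate 3 the highest. BnaC02g48550D had 0.411, 0.0613 and 0 CPM at TSA day 2, against 23.8, 26.0 and 22.01 CPM at day 0. BnaC02g43190D had 0.970, 0.889 and 0.510 CPM at TSA day 2, against 44.5, 45.5 and 27.3 CPM at day 0.

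TSA day 4 and TSA day 2 cultures differed in few genes. In the stretch 17 genes (1.83%) were called higher at day 4 and 15 (1.61%) lower, beside 6.4% of all genes, 4.04% higher and 2.36% lower. With library totals 39.5% of the calls in the stretch were higher in place of 53.1%. Over all genes it was 41.1% of the calls in place of 63.1%. Without TSA replicate 3 of both days 19 genes were called, 15 without TSA day 2 replicate 1 and 21 without TSA day 4 replicate 1, against 32 with all libraries. BnaC02g34260D had 102, 129 and 143 CPM at day 4 and 11.9, 15.1 and 21.9 CPM at day 2. BnaC02g37030D had 28.3, 16.0 and 12.7 CPM at day 4 and 1.26, 2.51 and 0.680 CPM at day 2. BnaC02g42580D had 11.9, 10.3 and 8.64 CPM at day 4 and 23.2, 23.8 and 24.3 CPM at day 2. BnaC02g46020D had 3.31, 5.70 and 7.40 CPM at day 4 and 12.5, 9.93 and 15.6 CPM at day 2, and its call was lost when any one library except TSA day 4 replicate 3 was left out of these 2 groups.

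From TSA day 4 to day 8 most of the calls in the stretch were lower. At day 8, 95 genes (10.2%) were called higher and 420 (45.1%) lower, beside 58.4% of all genes, 23.4% higher and 35.0% lower. The median log2 fold change was -1.08 in the stretch and -0.29 over all genes. It was -1.20 in the ordered run, -0.42 in the second block, -0.87 in the third block, -0.24 on the rest of C02 and -0.32 on A02. The doses of these groups are the same by the treatment field and differ by the titles, and no run is named for day 4. BnaC02g41390D had 0 and 0.0381 CPM at day 8 and 38.8, 38.9 and 21.7 CPM at day 4. BnaC02g38730D had 0 and 0.0381 CPM at day 8 and 31.7, 26.3 and 24.2 CPM at day 4. BnaC02g35640D had 12.4 and 13.2 CPM at day 8 and no count in any day 4 library. BnaC02g48560D, in the third block, had 4.77 and 16.2 CPM at day 8 and 0.111, 0.0587 and 0.0726 CPM at day 4.

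Against day 0, TSA day 8 had 182 genes called higher (19.5%) and 395 lower (42.4%), beside 58.1% of all genes, 29.0% higher and 29.2% lower. The median log2 fold change was -0.78 in the stretch, -0.91 in the ordered run, 0.00 in the second block and -1.18 in the third block. It was -0.12 on the rest of C02 and 0.00 both on A02 and over all genes. BnaC02g34260D had 121 and 65.9 CPM at day 8 and 0.269, 0.143 and 0 CPM at day 0. BnaC02g45410D, in the second block, had 22.5 and 19.3 CPM at day 8 and 0, 0.0359 and 0 CPM at day 0. BnaC02g35130D and BnaC02g43190D had no count in either day 8 library, and day 0 libraries had 96.1, 86.2 and 55.8 CPM and 44.5, 45.5 and 27.3 CPM.

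**Figure D5:**
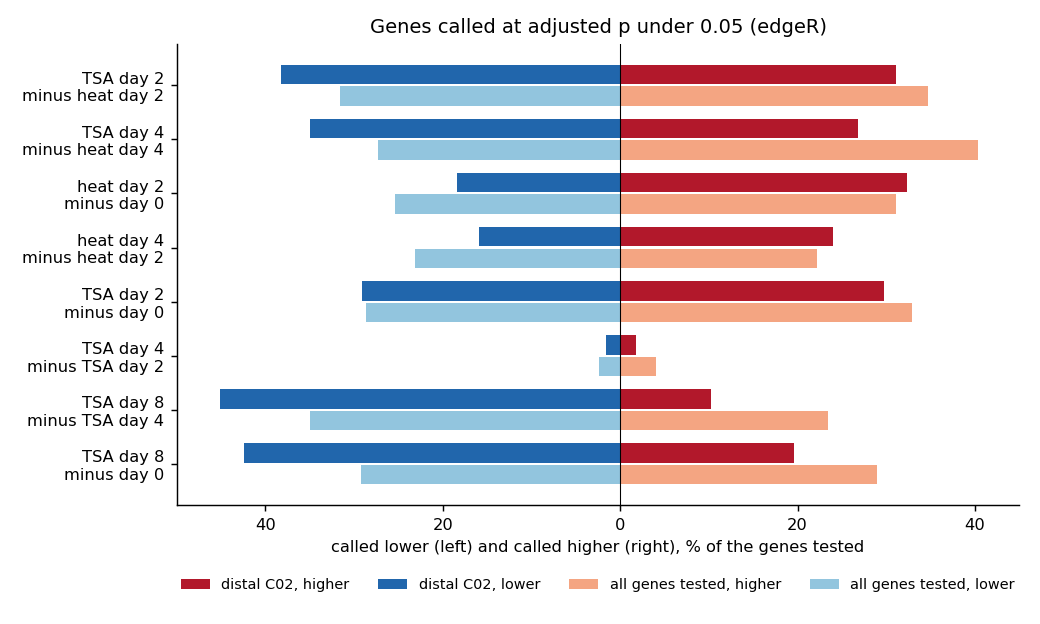
Share of tested genes called lower (bars to the left) and higher (bars to the right) at an adjusted p under 0.05, for the stretch (931 genes, dark) and all genes tested (64330, pale), in 8 comparisons. In both day 8 comparisons more of the stretch was called lower than higher (45.1% and 10.2% against TSA day 4, 42.4% and 19.5% against day 0). The limits of the stretch were set from these libraries.

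Of the genes listed in the reference, several of the more abundant ones showed the split of the heat-only replicates. BnaC02g33580D had 7.00, 14.1 and 13.2 CPM in heat-only cultures at day 2 and 8.11, 14.4 and 17.9 CPM at day 4, with replicate 1 about as far below the others on each day. BnaC02g36340D had 7.29, 18.5 and 17.4 CPM at day 2 and 5.29, 10.2 and 10.8 CPM at day 4. In BnaC02g43970D, the last ID of the ordered run, the values were 34.4, 78.6 and 75.7 CPM and 21.1, 44.2 and 48.9 CPM. BnaC02g40610D went the other way at day 2, with 11.2, 6.66 and 5.78 CPM, and had 34.2, 118 and 77.5 CPM at day 4. BnaC02g41130D had 85.9, 99.5 and 80.8 CPM with TSA at day 2, against 1.49, 9.10 and 8.42 CPM with heat alone.

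The 5 genes whose level varied least over the 17 libraries had ID numbers in the upper part of the stretch. ID number need not be position, as the listed IDs of the second block stand elsewhere on C2 in the reference. Of 215 genes with a mean of at least 10 CPM, the 5 with the smallest coefficient of variation had 13.8% to 27.1%. They were BnaC02g44880D, BnaC02g46710D, BnaC02g44310D, BnaC02g42210D and BnaC02g43350D. BnaC02g44880D, in the second block, had 20.8 and 24.9 CPM at TSA day 8, 27.7, 30.5 and 32.5 CPM in heat-only day 2 cultures and 22.6, 22.2 and 21.5 CPM at day 0. BnaC02g46710D, which lies between the second block and the third block, had 77.2 and 88.2 CPM at TSA day 8 and 88.6, 95.9 and 83.8 CPM at day 0. BnaC02g42210D, in the ordered run, had 20.9 and 18.3 CPM at TSA day 8, above every day 0 library with 14.4, 13.2 and 9.96 CPM, and its heat-only replicate 1 was the highest of the group on both days.

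At the limits the neighbouring IDs did not form a sharp step. Of the 5 genes just inside the lower limit, BnaC02g30550D was described above, and BnaC02g30590D, BnaC02g30620D, BnaC02g30630D and BnaC02g30640D had at most 2.90 CPM in any library. Just outside, BnaC02g30500D had 1.01 and 4.92 CPM at TSA day 8, 6.92, 12.5 and 12.2 CPM in heat-only day 2 cultures and 10.9, 11.3 and 14.4 CPM at day 0, and BnaC02g30480D, BnaC02g30520D, BnaC02g30530D and BnaC02g30540D had at most 2.06 CPM. Just inside the upper limit, BnaC02g48770D had 69.4, 118 and 109 CPM in heat-only day 2 cultures and 48.5, 73.8 and 84.2 CPM at day 4, with ratios of replicate 1 to the others of 0.610 and 0.614. BnaC02g48780D had 3.20, 9.14 and 10.7 CPM at day 2 and 3.35, 3.87 and 5.86 CPM at day 4. Just inside as well, BnaC02g48710D, BnaC02g48740D and BnaC02g48760D had at most 6.34 CPM. Just outside, BnaC02g48810D had 14.1, 19.3 and 16.9 CPM at day 2 and 6.17, 5.21 and 9.08 CPM at day 4. BnaC02g48820D had 2.98, 8.62 and 9.01 CPM at day 2 and 22.9, 69.7 and 46.4 CPM at day 4, while BnaC02g48800D, BnaC02g48830D and BnaC02g48840D had at most 1.02 CPM. Above the upper limit, 10 IDs of C02 had at least 10 counts, and 5 of these had a mean of at least 5 CPM. Over those 5 genes heat-only replicate 1 had a median difference from the other libraries of -0.65 at day 2, where it was the lowest library for 100% of them, and of -1.15 at day 4, where it was the lowest for 80%. The low level of this replicate was thus seen on both sides of the upper limit.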

How the data were processed

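Per the file headers, the table used is the authors' raw count table, 1 column per library. The sources used here do not give the aligner, counting program, build, annotation or the treatment of reads shared by A and C copies. The deposited log2 CPM and fold change tables were not used. The stretch, its limits and the gene lists were chosen with earlier results of these data known. Genes named are the 10 most abundant, those at the limits, the 5 least varying, the 2 largest rises and falls called in each comparison, and abundant ones listed in the reference.

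Counts were fitted in edgeR 4.0.16 (R 4.3.3) with TMM scaling, filterByExpr, the robust quasi-likelihood test and 1 coefficient per group over 17 libraries. The two-sided p-values were adjusted by Benjamini-Hochberg over 64330 genes. Alternatives were RLE factors, library totals, DESeq2 1.42.0, no filter, each library left out and the replicate block. The spread between libraries holds counting error and replicate differences only, and replicates are called biological by the series design. Replicate numbers of day 0, TSA day 2 and TSA day 8 coincide with sequencing lanes 4, 5 and 6 in the labels. Deviations of same-numbered libraries correlated at 0.07 to 0.13 for TSA day 2 and day 0, and at -0.08 to 0.12 for TSA day 8 and day 0.

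Windows hold 30 genes with at least 10 counts in ID order, with a pseudocount of 1 CPM. No sequence is printed, since none was given for these IDs.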

Additional observations from a re-analysis of the deposited data

Results flagged for a closer look

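BnaC02g44310D, one of the least varying genes, differed between TSA and heat in opposite directions on the 2 days. At day 2 every TSA library (14.9, 12.8 and 10.9 CPM) was below every heat-only library (15.03, 17.4 and 17.7 CPM). At day 4 every TSA library (13.4, 15.4 and 11.8 CPM) was above every heat-only library (10.6, 10.6 and 11.2 CPM). The log2 ratio of the group means was 0.707 higher at day 4 than at day 2. The difference between the days was not tested. No group held 4 or more libraries, so single libraries were not screened for outliers.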

How the results depend on the processing

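Of 95 recounts of the calls in the stretch over 8 comparisons, 91 stayed within 1.5 times the number reported. The others were TSA day 4 minus TSA day 2, with 32 genes called, 15 to 29 when single libraries were left out and 19 without TSA replicate 3 of both days, and heat-only day 4 minus heat-only day 2, with 371 called and 242 to 360 when single libraries were left out and 395 without heat-only replicate 1 of both days. With single libraries left out, all-gene calls also fell. They went from 4114 to 1342 to 3250 in the first comparison and from 29185 to 22000 to 28514 in the second. With the replicate block, where the number marks a shared lane, there were 556 calls for TSA day 2 minus day 0 (548 without it) and 578 for TSA day 8 minus day 0 (577 without it). The block gave 635, 576, 471, 379, 43 and 508 calls in the other comparisons, in the order TSA minus heat at day 2 and at day 4, heat day 2 minus day 0, heat day 4 minus day 2, TSA day 4 minus day 2 and TSA day 8 minus day 4, so it moved no count by over 1.5 times. For these 6 the labels name no shared source of same-numbered libraries. Their deviations correlated at 0.256, 0.0063 and 0.335 for heat day 4 and day 2 and at 0.293, 0.0175 and 0.518 for TSA day 4 and day 2, for numbers 1, 2 and 3, so replicate 2 was near 0, and not every library correlated best with its own number.

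The share of counts in the stretch was 0.594% at TSA day 8 and 0.853% at day 0 with 30 genes left out at each end. Without the 10 most abundant genes it was 0.595% at TSA day 8, 0.681% at heat day 2, 0.656% at heat day 4 and 0.825% at day 0. The level against the rest of C02 was -0.95 at TSA day 8 and 0.034 at day 0 with a pseudocount of 0.1, and -0.87 at TSA day 8 with library totals. Over all 1170 genes, a choice added after the data were seen, it was 0.0072 at TSA day 2, -0.0086 at TSA day 4, -0.15 at TSA day 8, 0.041 at heat day 2 and 0.077 at heat day 4, and the cause was not tested. The mean over the libraries of heat day 2 was 0.34, and 0.24 to 0.53 with single libraries left out, and that of heat day 4 was 0.37, and 0.25 to 0.60; both were highest without replicate 1. Low counts limit the 534 genes with a mean under 1 CPM, since 3 counts stand for up to 0.786 CPM.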
